A study of Mus musculus with 10 samples.

Results

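The genes described are 33 that act in mitosis and at the entry into it from the G2 phase of the cell cycle, chosen by name: cyclins, mitotic kinases, kinetochore and spindle proteins, motors and cytokinesis factors. Of the 33, 32 had a probe naming that gene alone, out of 19938 genes measured in the series, and Ccnb1 had none and was not analysed here. The series holds 10 whole-transcript arrays of total RNA from MC38 tumors, which arise from a transplanted colon carcinoma line, grown under the skin of C57BL/6 mice. In 5 mice, numbered 50, 58, 183, 189 and 595, tumors of about 40 mm2 received 50 µg of CpG1826, an oligodeoxynucleotide that activates mouse TLR9, in 50 µL of PBS, and were collected after 6 h. In the other 5, numbered 26, 29, 482, 592 and 661, the labels give PBS as the agent, and the same schedule was assumed. All 10 tumors thus came from the same line outside the colon, and the age of the mice was not given in their labels. Whole tumors were profiled, so a lower value cannot separate fewer dividing cells from less RNA in each of them, nor tumor cells from dividing cells of the host.

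The cell cycle regulates most of these genes at the level of transcription, and their mRNAs accumulate as cells pass from DNA replication to mitosis. The cyclin B and Cdk1 kinase starts mitosis, Aurora and Polo kinases build the spindle, and kinetochores couple chromosomes to its microtubules. The spindle checkpoint holds back the anaphase-promoting complex until every chromosome is attached, after which cohesion is cut and the cell divides. Many of these promoters carry a cell cycle genes homology region (CHR), a site for the MuvB complexes that repress these genes in quiescence and, with B-MYB and FOXM1, activate them later, and CCAAT boxes, sites for NF-Y. In a tumor, the summed RNA of such genes is widely used as a sign of proliferation.

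The shared promoter letters are shown first. The members were chosen by name and not by these letters. Such promoters are already known to carry them, as described above, so a high share is no independent result. RefSeq windows on GRCm38.p6, from 250 bases before to 50 after an annotated start, were matched for 28 of the 33 genes in 30 windows. Kif20a, Tpx2, Ccna2, Aurkb and Incenp had no entry. Both strands were searched for the CHR letters TTTGAA and TTCGAA, the latter its own reverse complement and counted once per place, and for CCAAT. At least 1 CHR match was present for 22 of 28 genes (78.6%), against 19% of the 15614 tested genes with a window. At least 1 CCAAT box was present for 21 of 28 (75%, against 41.7%), and both together for 19 of 28 (67.9%, against 7.69%). Of 30 DNA replication genes, 6 (20%) had CHR letters, 19 (63.3%) a CCAAT box and 5 (16.7%) both, and the differences from the mitotic genes were not tested. The E2F spellings TTTGGCGC, TTTCCCGC, TTTCGCGC and TTTGCCGC, found for 13 of those 30 genes (43.3%), matched 1 of the 28, Cdk1 (3.57%), against 3.48% of the tested genes. All motifs were searched on both strands, and matches of different motifs could overlap. A match is a description of letters, and its absence says nothing about the factor.

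The windows below, 5′ to 3′ on the gene's strand with CHR and CCAAT letters in capitals, belong to the 2 genes that passed the test (Cenpa and Kif23), to 2 regulators of mitosis that did not (Ccnb2 and Plk1), and to Nuf2, which had no match and did not pass. They lie at chr5:30666636-30666935 (Cenpa, plus strand), chr9:61946750-61947049 (Kif23, minus), chr9:70421505-70421804 (Ccnb2, minus), chr7:122159185-122159484 (Plk1, plus) and chr1:169531415-169531714 (Nuf2, minus).
Cenpa: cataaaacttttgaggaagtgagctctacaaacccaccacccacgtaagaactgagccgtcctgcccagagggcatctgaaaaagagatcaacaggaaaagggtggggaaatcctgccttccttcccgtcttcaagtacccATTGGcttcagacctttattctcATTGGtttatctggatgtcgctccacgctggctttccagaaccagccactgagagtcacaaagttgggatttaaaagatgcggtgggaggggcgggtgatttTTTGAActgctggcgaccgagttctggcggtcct
Kif23: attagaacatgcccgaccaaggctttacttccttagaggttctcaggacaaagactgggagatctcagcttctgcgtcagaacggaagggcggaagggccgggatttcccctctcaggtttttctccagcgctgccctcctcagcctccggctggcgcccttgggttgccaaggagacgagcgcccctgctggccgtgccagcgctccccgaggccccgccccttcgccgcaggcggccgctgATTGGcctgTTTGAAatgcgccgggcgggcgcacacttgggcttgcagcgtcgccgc
Ccnb2: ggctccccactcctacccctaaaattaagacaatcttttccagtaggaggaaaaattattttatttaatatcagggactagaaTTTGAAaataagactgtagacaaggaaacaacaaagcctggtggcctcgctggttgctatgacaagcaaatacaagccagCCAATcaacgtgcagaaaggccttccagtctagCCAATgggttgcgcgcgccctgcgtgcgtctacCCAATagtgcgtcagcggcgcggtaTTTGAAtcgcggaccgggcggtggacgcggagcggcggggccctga
Plk1: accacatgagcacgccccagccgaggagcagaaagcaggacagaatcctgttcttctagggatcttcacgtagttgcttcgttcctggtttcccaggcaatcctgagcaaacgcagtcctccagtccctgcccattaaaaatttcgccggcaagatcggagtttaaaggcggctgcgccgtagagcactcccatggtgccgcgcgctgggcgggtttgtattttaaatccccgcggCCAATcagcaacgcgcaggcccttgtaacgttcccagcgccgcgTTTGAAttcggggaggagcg
Nuf2: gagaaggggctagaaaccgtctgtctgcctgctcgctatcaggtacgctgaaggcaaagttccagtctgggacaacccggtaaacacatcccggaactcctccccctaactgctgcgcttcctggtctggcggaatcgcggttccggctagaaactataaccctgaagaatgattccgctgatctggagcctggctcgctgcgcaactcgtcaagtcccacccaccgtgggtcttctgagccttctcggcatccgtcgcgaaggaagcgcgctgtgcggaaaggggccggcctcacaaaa

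In the Cenpa, Kif23 and Plk1 windows the CHR letters lie after the start and downstream of the CCAAT letters. Over all 30 windows, 23 of 34 CHR matches lay within 50 bases of the start, and the median position was -10 for CHR and -65 for the 49 CCAAT matches. Both Prc1 windows and both Ect2 windows overlap, so the matches there are counted in each. Tested genes with CHR letters had a median log2 difference between CpG1826 and PBS tumors of -0.15 (22 genes) and those with a window but no CHR letters -0.16 (5 genes).

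**Figure D1:**
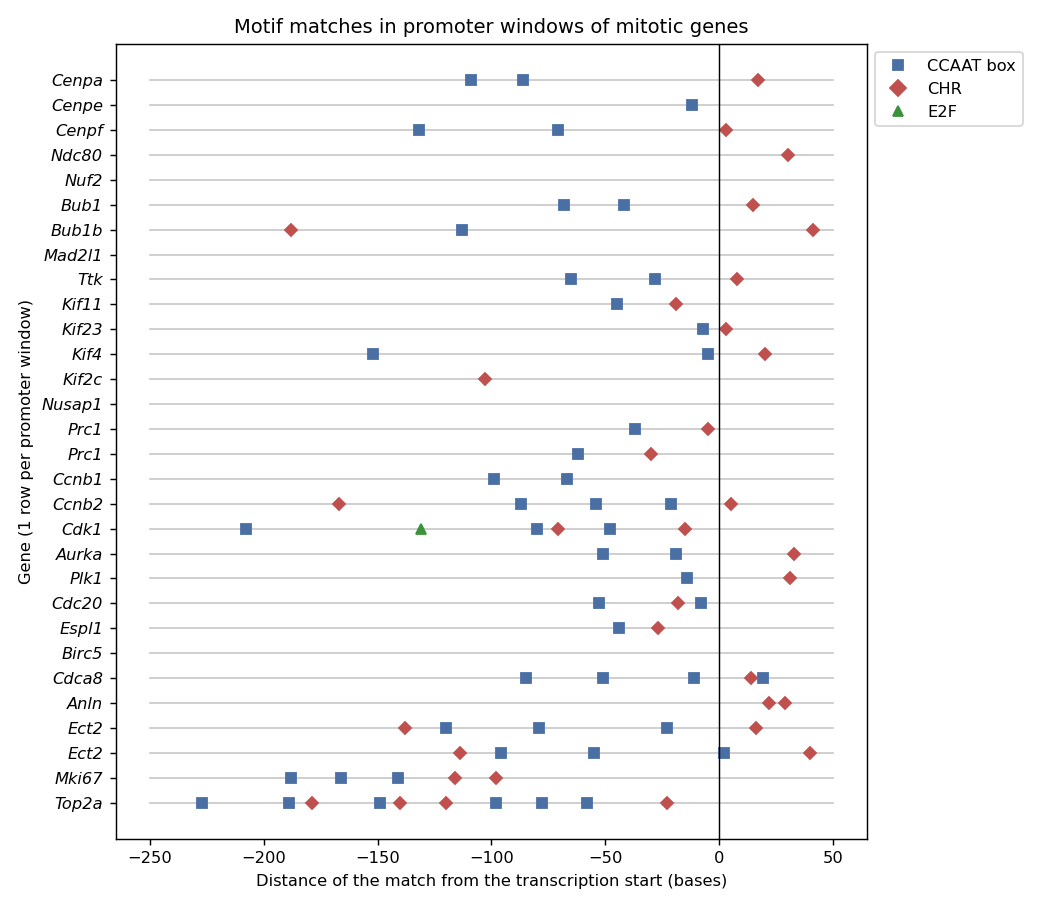
Position of CHR, CCAAT and E2F letters in the 30 promoter windows of 28 mitotic genes; the x axis gives the distance in bases from the annotated transcription start (0), each row is 1 window and each symbol 1 match. CHR matches gather near the start, 23 of 34 within 50 bases, and CCAAT boxes mostly lie before it, at a median of -65.

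Across the array, values are log2 probe intensities as deposited, and a difference is CpG1826 minus PBS. The array medians lay between 6.47 and 6.53, pairs of arrays correlated at r = 0.980 to 0.994 over probes, and precision is set by there being 5 arrays in a group. Each array is 1 mouse by its number, so p-values rest in part on the spread between these mice. SE, intervals and p-values are limma's, which draws the variance of each gene toward a value common to all genes. Of 11 markers of simple colon epithelium, 2 lay above the median gene level. Krt8, Cdh1, Cldn4 and Cldn3 had PBS means of 6.93, 6.74, 6.74 and 6.61, above the array medians over probes. Krt20, Vil1 and Epcam had PBS means of 4.32, 4.68 and 5.19, near the lower quartile of the PBS arrays (4.87 to 4.98). The rest lay at 5.08 (Krt19) to 5.79 (Cldn7). Detection calls were not used, so the dimmer markers are not called absent. Epcam (limma adjusted p = 0.0485) and Cdh1 (limma adjusted p = 0.0102) were called higher in CpG1826 tumors, 2 of 11, where 3.56% of all genes were. The other 9 did not pass and differed by -0.32 (Cldn7) to 0.13 (Cldn4), with Krt20 at 0.03, Cdx2 at 0.02 and Vil1 at -0.12. Which cells held the Epcam and Cdh1 RNA was not tested.

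Most of the mitotic genes had slightly lower means in CpG1826 tumors, with differences from -0.28 (Kif23) to 0.01 (Bub1), and few passed the test. The median difference over the 32 genes was -0.17 on the log2 scale, against -0.02 over all genes and -0.01 over the 9969 genes above the median level, where all 32 lie. In 31 of 32 the mean was lower in CpG1826 tumors, against 58% of all genes and 53.4% of those above the median level. Only Cenpa and Kif23 passed the test (limma, Benjamini-Hochberg adjusted p under 0.05), 2 of 32 or 6.25% lower, where 1.10% of all genes and 1.7% of those above the median level were called lower. None was called higher by limma, where 3.56% of all genes were. At an unadjusted p under 0.05, 15 of 32 (46.9%) were lower and 0 higher, against 7.43% and 8.13% of all genes and 9.99% and 12.4% of the genes above the median level. In 7 of 32 genes (21.9%) every CpG1826 value lay below every PBS value, and 2.42% of all genes and 4.01% of those above the median level did so. Members share tumors and vary together, so these counts are not independent.

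The intervals limit the size of each difference, gene by gene and on the deposited scaling, and are not adjusted for the 32 genes. The lowest end of any 95% confidence interval was -0.45 (Kif4, 1.37-fold lower) and the highest was 0.22 (Bub1, 1.16-fold higher). The number of calls depended on single tumors. None was made without PBS mouse 29, 482, 592 or 661 or without CpG1826 mouse 50, 183 or 189, 1 without CpG1826 mouse 595 (Kif23), 3 without CpG1826 mouse 58 (Cenpa, Nuf2 and Kif23), and 4 without PBS mouse 26 (Cenpa, Kif23, Kif20a and Ccna2). A further quantile normalization, applied on top of a deposited scaling that is not stated, gave 5 calls, and centring each array on its median gave none.

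**Figure D2:**
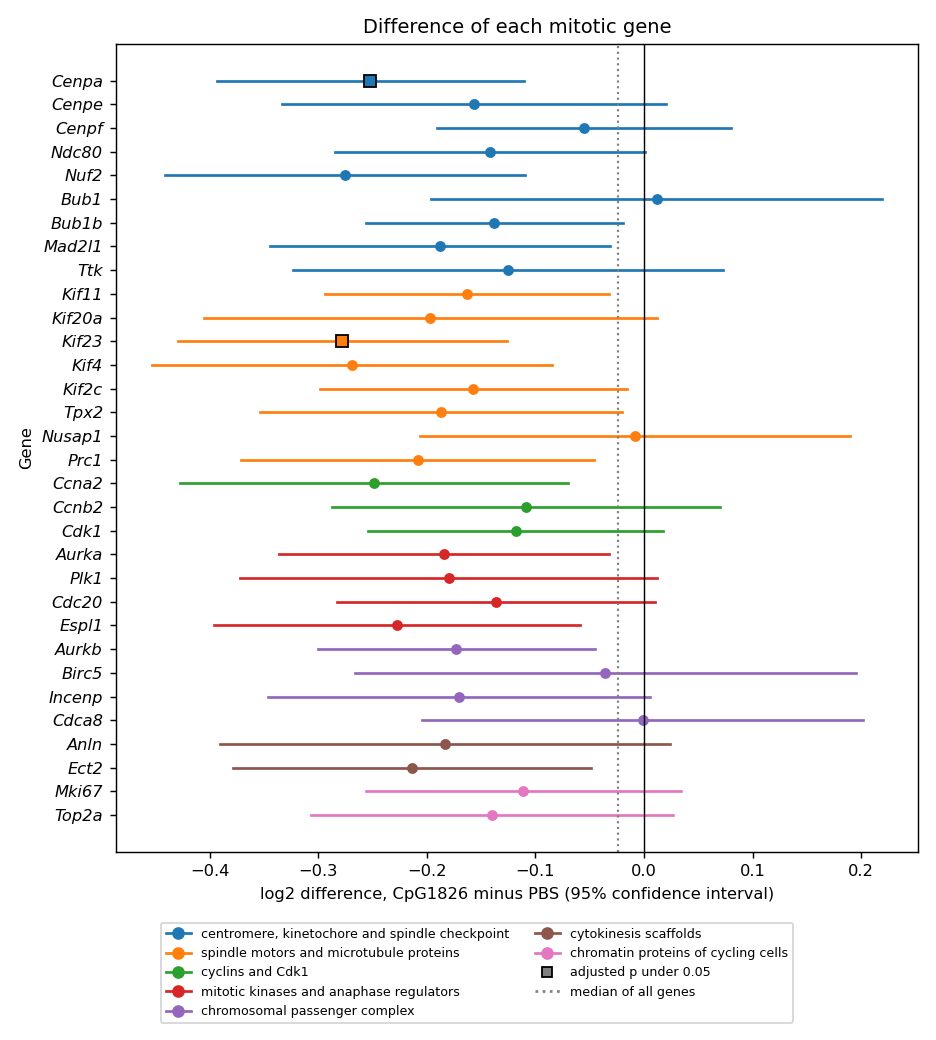
Log2 difference of each of 32 mitotic genes, CpG1826 minus PBS (x axis, n = 5 tumors per group), with 95% confidence intervals as bars and colours by role; squares mark adjusted p under 0.05 and the dotted line the median of all genes (-0.02). The estimates lie left of 0 for 31 genes, and only Cenpa and Kif23 passed.

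Genes of the centromere, kinetochore and spindle checkpoint held 1 of the 2 calls. Cenpa encodes the histone H3 variant that marks the centromere. Its values were 9.56, 9.59, 9.61, 9.68 and 9.74 in PBS tumors (mice 26, 29, 482, 592 and 661) and 9.32, 9.52, 9.37, 9.31 and 9.42 in CpG1826 tumors (mice 50, 58, 183, 189 and 595). The groups did not overlap, and CpG1826 mouse 58 came nearest to the PBS tumors. The means were 9.64 ± 0.07 and 9.39 ± 0.08 (SD, n = 5 per group), a difference of -0.25 ± 0.07 (SE; limma adjusted p = 0.0444) or 1.19-fold lower (1.08 to 1.31). Over the fits with 1 mouse left out the adjusted p ran up to 0.112.

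Nuf2 and Ndc80 encode subunits of the complex that binds spindle microtubules at the kinetochore. Nuf2 was at 9.80, 9.70, 9.64, 9.78 and 9.70 in PBS and at 9.46, 9.62, 9.36, 9.25 and 9.54 in CpG1826 tumors, in the same order of mice. All CpG1826 values lay below all PBS values, but the gene did not pass (-0.28 ± 0.08, limma adjusted p = 0.0638). It passed with a further quantile normalization (limma adjusted p = 0.0197), among other settings. Ndc80 differed by -0.14 ± 0.07, and its CpG1826 values of 7.63 to 7.85 overlapped the PBS values of 7.76 to 7.94. CpG1826 mouse 189, the lowest tumor for most of these genes, had the highest Ndc80 value of its group.

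The checkpoint genes were mixed. Bub1b, which encodes the checkpoint protein BubR1, had the narrowest spread, from 10.20 to 10.25 in PBS and from 10.03 to 10.13 in CpG1826 tumors. Its groups did not overlap, yet the difference of -0.14 ± 0.06 did not pass (limma adjusted p = 0.231). That SE is limma's moderated one and exceeds the gene's own SDs of 0.02 in PBS and 0.04 in CpG1826 tumors. Bub1, a checkpoint kinase, was at 9.27, 9.74, 9.54, 9.71 and 9.61 in PBS and 9.63, 9.76, 9.48, 9.43 and 9.64 in CpG1826 tumors. Its groups overlapped throughout (0.01 ± 0.10, 95% confidence interval -0.20 to 0.22), and the lowest tumor was PBS mouse 26. Bub1 was the 1 gene of 32 with a mean above PBS, and its sign turned with a further quantile normalization (-0.01). Mad2l1, which encodes the inhibitor Mad2, differed by -0.19 and the kinase gene Ttk by -0.13. Of the large kinetochore proteins, Cenpe, a motor, differed by -0.16 and Cenpf by -0.06, and neither passed.

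Among the motors and microtubule proteins, Kif23 passed and 8 of 8 estimates lay below 0. Kif23 encodes the kinesin of the centralspindlin complex, which organizes the spindle midzone. Its values were 9.50, 9.58, 9.57, 9.64 and 9.64 in PBS and 9.30, 9.44, 9.19, 9.19 and 9.42 in CpG1826 tumors. The groups did not overlap, and mice 183 and 189 were lowest. The difference was -0.28 ± 0.07 (limma adjusted p = 0.0384), or 1.21-fold lower (1.09 to 1.35), with an adjusted p of up to 0.108 when 1 mouse was left out. Racgap1, the other subunit of centralspindlin and outside the 33 genes, was also called lower (-0.34 ± 0.08, limma adjusted p = 0.0277), with values of 10.44 to 10.73 in PBS and 10.04 to 10.32 in CpG1826 tumors that did not overlap. Racgap1 no longer passed when CpG1826 mouse 183 or 189, or PBS mouse 26, 592 or 661, was left out (limma adjusted p of up to 0.0744).

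Kif4, a chromosome-bound kinesin, was at 8.69, 8.75, 8.70, 8.85 and 8.77 in PBS and 8.50, 8.63, 8.44, 8.20 and 8.65 in CpG1826 tumors. The groups did not overlap, and mouse 189 stood lowest (-0.27 ± 0.09, limma adjusted p = 0.112). Kif11, the motor that separates the spindle poles, ran from 9.63 to 9.74 in PBS and from 9.40 to 9.59 in CpG1826 tumors without overlap (-0.16 ± 0.06, limma adjusted p = 0.191). Prc1, which bundles midzone microtubules, differed by -0.21, Tpx2, an activator of Aurora A, by -0.19, and Kif2c, a microtubule depolymerase, by -0.16, all with overlapping groups.

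Kif20a, a kinesin of the midzone, was at 8.77, 9.20, 9.20, 9.21 and 9.25 in PBS and 8.92, 9.07, 8.98, 8.74 and 8.94 in CpG1826 tumors. The groups overlapped only through PBS mouse 26 (-0.20 ± 0.10, limma adjusted p = 0.357), and without that mouse the gene passed (-0.29, limma adjusted p = 0.0471). Nusap1, a spindle-associated protein, was at 7.73 in PBS mouse 26 and at up to 8.13 in the other PBS tumors, and at 7.74 to 8.12 after CpG1826. Its difference was -0.01 ± 0.09, and its sign turned with median centring (0.01).

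**Figure D3:**
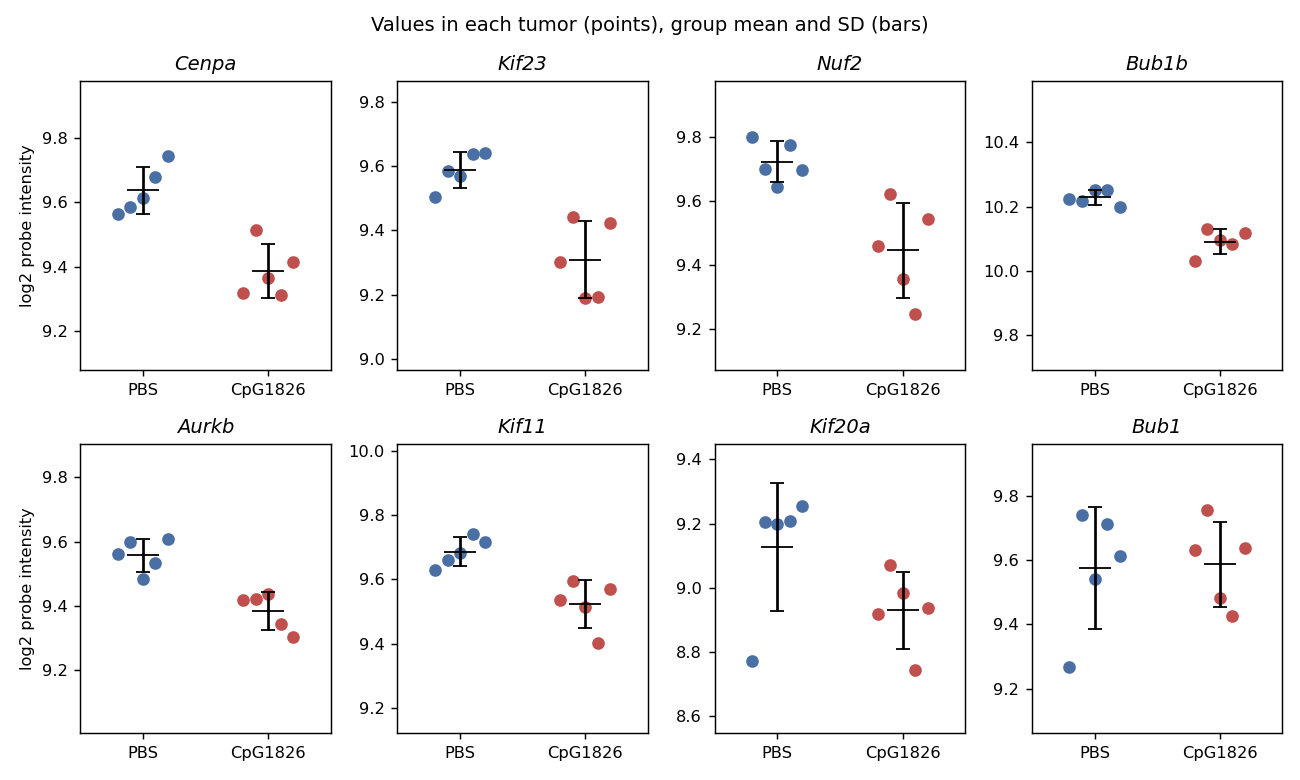
Log2 probe intensity (y axis, a span of equal height in each panel) of 8 mitotic genes in 5 PBS and 5 CpG1826 tumors; points are tumors and bars the mean and SD. The groups do not overlap for Cenpa, Kif23, Nuf2, Bub1b, Aurkb and Kif11, Kif20a overlaps through PBS mouse 26, and Bub1 does not separate.

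Neither the cyclins nor Cdk1 passed the test, and of the 3 only Ccna2 had a 95% confidence interval below 0 (-0.43 to -0.07). Ccna2 encodes cyclin A2, which acts in S and G2 phase. It was at 10.26, 10.60, 10.55, 10.66 and 10.57 in PBS and 10.21, 10.42, 10.22, 10.20 and 10.33 in CpG1826 tumors. PBS mouse 26 alone lay within the CpG1826 range (-0.25 ± 0.08, limma adjusted p = 0.134), and without it the gene passed (-0.32, limma adjusted p = 0.0213). Ccnb2, cyclin B2, differed by -0.11 ± 0.08, with PBS mouse 26 at 9.59 below all other tumors and no other PBS tumor below 9.90. Cdk1, the kinase that cyclin B activates, ran from 9.89 to 10.08 in PBS and from 9.78 to 9.95 in CpG1826 tumors (-0.12 ± 0.06).

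None of the 4 mitotic kinase and anaphase genes passed. Plk1, Polo-like kinase, was at 9.25, 9.51, 9.57, 9.68 and 9.65 in PBS and 9.27, 9.50, 9.35, 9.22 and 9.42 in CpG1826 tumors. The overlap again came from PBS mouse 26 (-0.18 ± 0.09, limma adjusted p = 0.360). Aurka, Aurora A of the spindle poles, showed the opposite: PBS mouse 26 was highest at 9.25, the other PBS tumors lay at 9.08 to 9.15 and CpG1826 tumors at 8.82 to 9.09 (-0.18 ± 0.07). Espl1 encodes separase, which cuts cohesin at anaphase. It ran from 8.58 to 8.75 in PBS and from 8.21 to 8.59 in CpG1826 tumors (-0.23 ± 0.08, limma adjusted p = 0.150). Cdc20, which activates the anaphase-promoting complex, differed by -0.14 ± 0.07.

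The chromosomal passenger complex, which corrects chromosome attachment and directs cytokinesis, had 1 gene whose groups did not overlap. Aurkb, its kinase Aurora B, was at 9.56, 9.60, 9.48, 9.53 and 9.61 in PBS and 9.42, 9.42, 9.44, 9.34 and 9.30 in CpG1826 tumors. It did not pass (-0.17 ± 0.06, limma adjusted p = 0.147). Incenp, the scaffold, differed by -0.17 ± 0.08. Birc5, which encodes survivin, was at 8.16 in PBS mouse 26 and 8.51 to 8.73 in the other PBS tumors, and at 8.31 to 8.69 after CpG1826 (-0.04 ± 0.11). Cdca8, which encodes borealin, had a difference of 0.00 ± 0.09, with an interval of -0.20 to 0.20 and a sign that turned with median centring (0.01). Subunits of the same complex thus gave estimates from -0.17 to 0.00, and the differences between them were not tested.

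The cytokinesis scaffolds Ect2, the exchange factor that activates RhoA at the midzone, and Anln, anillin of the contractile ring, differed by -0.21 ± 0.08 and -0.18 ± 0.10. Ect2 ran from 9.58 to 9.74 in PBS and from 9.31 to 9.69 in CpG1826 tumors, where only mouse 58 lay within the PBS range. Mki67, the proliferation antigen Ki-67, was at 10.12, 10.17, 10.18, 10.28 and 10.14 in PBS and 10.14, 10.17, 10.02, 9.92 and 10.09 in CpG1826 tumors. Mice 50 and 58 lay within the PBS range (-0.11 ± 0.07, interval -0.26 to 0.03). Top2a, topoisomerase II alpha, ran from 11.21 to 11.36 in PBS and from 10.95 to 11.32 in CpG1826 tumors (-0.14 ± 0.08). It was the 1 gene with several probes, and the dimmer one, at a mean level of 5.43, differed by -0.03.

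Tumors of a group also differed among themselves. The median offset of the 32 genes from their PBS means was -0.06, 0.00, -0.02, 0.08 and 0.02 in PBS mice 26, 29, 482, 592 and 661, and -0.17, -0.05, -0.18, -0.32 and -0.11 in CpG1826 mice 50, 58, 183, 189 and 595. CpG1826 mouse 189 had the lowest value of the 10 tumors for 22 genes, and PBS mouse 592 the highest for 14. PBS mouse 26 was the lowest of 10 for 5 genes (Bub1, Birc5, Nusap1, Ccnb2 and Cdca8) and the highest for another 5. It lay below the PBS mean for 22 of 32 genes, was the lowest of its group for 18, and had the lowest median offset and the lowest mean of the PBS tumors. The mean of the 32 genes ran from 9.29 to 9.46 in PBS and from 9.07 to 9.34 in CpG1826 tumors, and the ranges overlapped.

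The deposited arrays also differed in the spread of all their values. The part of this in the offsets was not tested. The SD over all probes was lowest in PBS mouse 26 (2.25) and highest in PBS mouse 592 (2.32) among PBS arrays, and lowest in CpG1826 mouse 189 (2.27) among CpG1826 arrays. After a further quantile normalization, which makes these spreads equal, the mean of the 32 genes ran from 9.34 to 9.42 in PBS and from 9.11 to 9.27 in CpG1826 tumors, without overlap. CpG1826 mouse 189 was then the lowest of 10 for 17 genes, and the median difference was -0.19.

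**Figure D4:**
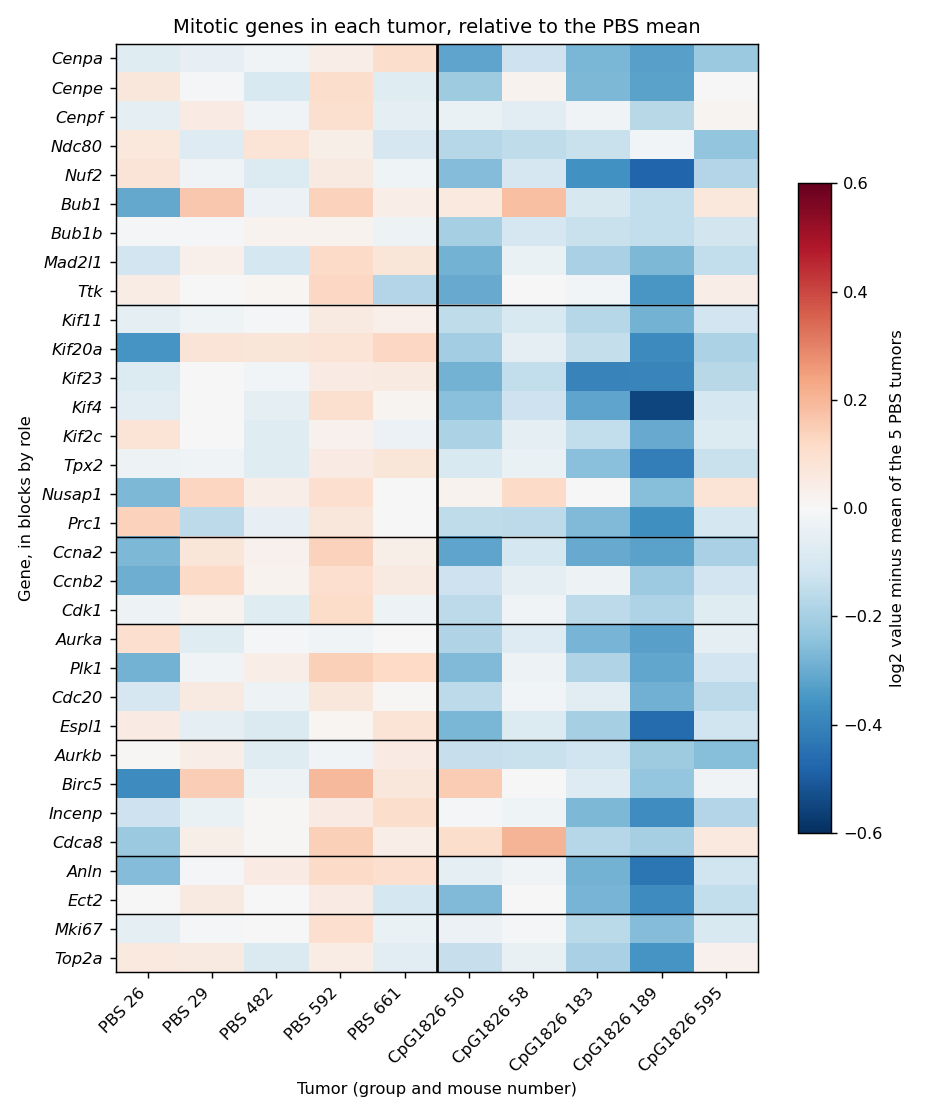
Log2 value of each of 32 mitotic genes (rows, in blocks by role) in each of 10 tumors (columns), minus the mean of the 5 PBS tumors; blue is lower and red higher. CpG1826 mouse 189 is lowest for 22 genes, and PBS mouse 26 is blue for a subset that includes Bub1, Kif20a and Birc5.

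With the group means subtracted, most of the genes varied together between tumors. The correlation of a gene with the mean of the others over 10 arrays had a median of r = 0.75 and was above 0.5 for 28 of 32, highest for Kif11 (0.96) and Kif4 (0.94) and lowest for Ndc80 (-0.62). Without CpG1826 mice 189 and 58, the 2 farthest from the median, the median was 0.59 and 19 of 32 stayed above 0.5. These are descriptions over arrays that share normalization and intensity spread. The share of other genes with r above 0.5 was not counted, so these values do not show a trait particular to the mitotic genes. Of 9937 other genes above the median level, those most like the mean of the mitotic genes were Rab2b, Dmtf1, Cfdp1, Txndc9, Tbc1d5, Zbtb41, Stil and Eif1ax (r = 0.96 to 0.98). Of these 8, only Stil, a centriole duplication gene, stands on a cell cycle list used here. The most opposite were Mir338, Nrn1l, Mir598 and Tspan11 (r = -0.96 to -0.95).

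The other genes of mitosis were lower by less at the median. Of 35 measured other kinetochore genes 0 were called by limma, 30 lay below 0 (85.7%, against 58% of all genes) and the median was -0.09. With an unadjusted p under 0.05, 7 were lower (20%, against 7.43% of all genes and 9.99% of those above the median level). The brightest of these kinetochore genes were Bub3 (-0.18, groups not overlapping) and Zwint (0.06). Of 29 other spindle and cytokinesis genes 1 fell, Racgap1 (3.45%, against 1.10% of all genes), and the median was -0.09. In that list 7 (24.1%, against the same 7.43% and 9.99%) were lower with an unadjusted p under 0.05. None of 31 other G2/M regulators passed in limma, with a median of -0.08. Unadjusted p-values under 0.05 were found for 4 lower genes (12.9%, against the same 7.43% and 9.99%) and 1 higher gene (3.23%, against 8.13% of all genes). The higher gene was Pttg1, which differed by 0.23 without overlap of the groups (limma adjusted p = 0.0948). Cdc25b, a phosphatase that activates Cdk1, differed by -0.22 without overlap (limma adjusted p = 0.0995), and Wee1, the kinase that restrains it, by 0.00. The transcription factors Foxm1 and Mybl2, which act on CHR promoters, differed by -0.07 and -0.02. The brightest of these regulators, Ube2s and Hmgb2, differed by 0.08 and -0.01. Of 14 anaphase-promoting complex genes 0 passed in limma (median -0.05, with Anapc1 -0.11 and Anapc5 -0.05). Of 16 condensin and cohesin genes 0 passed (median -0.09, with Rad21 0.00 and Pds5a -0.07). Lower values with an unadjusted p under 0.05 were found for 3 of the former (21.4%) and 4 of the latter (25%). The shares were 7.43% of all genes and 9.99% of those above the median level.

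DNA replication genes had a like median and more calls. Of 37 measured, 5 fell (13.5%, against 1.10% of all genes and 1.7% of those above the median level). In 36 the difference lay below 0 (97.3%, against 58% of all genes), with a median of -0.18. With an unadjusted p under 0.05, 20 were lower (54.1%, against 7.43% of all genes). Cdc6, a licensing factor, was at 8.52 to 8.89 in PBS and 7.97 to 8.32 in CpG1826 tumors (-0.47 ± 0.09, limma adjusted p = 0.00684). Tk1, thymidine kinase, fell by 0.40 and Pcna, the replication clamp, by 0.32 on the log2 scale. The number that fell was 3 without PBS mouse 482 or 592 or CpG1826 mouse 595, and 13 with a further quantile normalization. Among 20 genes of G1 cyclins, their kinases and E2F factors, only 1 fell (5%, against 1.10% of all genes). It was E2f8, a repressor of the E2F family (-0.41 ± 0.10, limma adjusted p = 0.0250). The call held without PBS mouse 29 or CpG1826 mouse 58 or 595. It was lost without any of the other 7 mice (limma adjusted p of up to 0.0643). Myc did not pass (0.22 ± 0.07). Of 21 measured CDK inhibitors and arrest genes, 4 rose and 1 fell, where 3.56% and 1.10% of all genes did. Gadd45b, also a target of NF-κB, rose by 1.41 and Gadd45a, a DNA damage-inducible gene, by 0.69. Sesn2 and Btg1 also rose, while Sesn1 fell by 0.51. Sesn1 no longer passed when CpG1826 mouse 50, 183 or 189, or PBS mouse 26, 29 or 592, was left out (limma adjusted p of up to 0.0873). Cdkn1a, which encodes p21, had no probe of its own and was not analysed here. Differences between these lists and the mitotic genes were not tested.

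**Figure D5:**
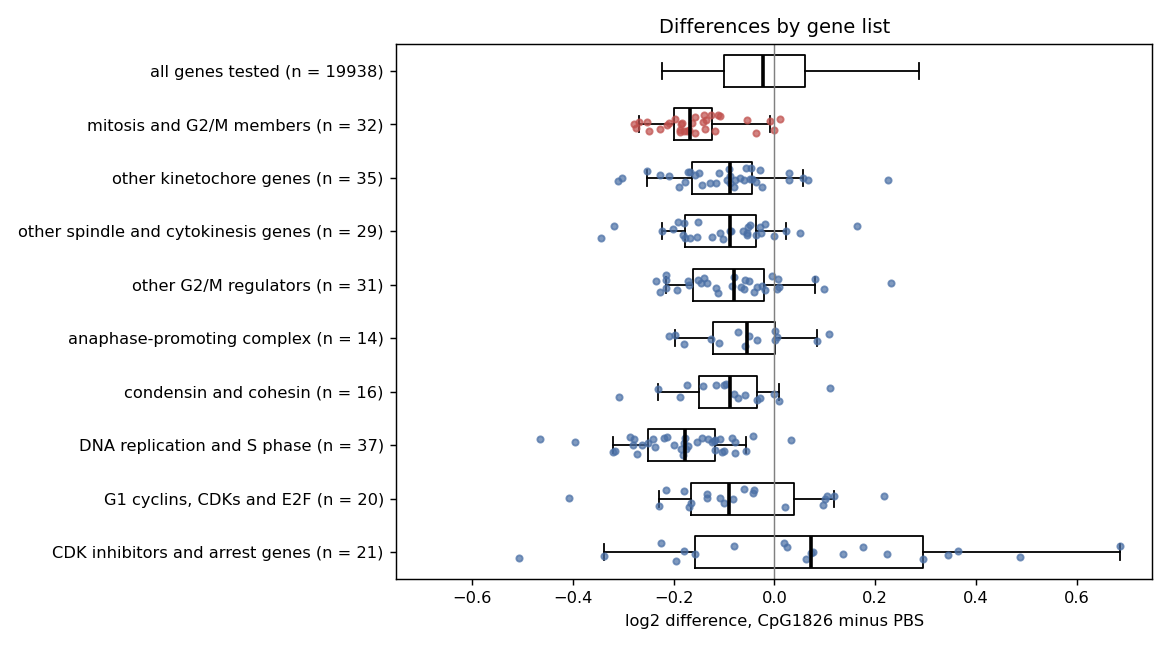
Log2 difference of each gene, CpG1826 minus PBS (x axis), by gene list, with points for genes and boxes for the median and quartiles (whiskers from the 5th to the 95th percentile; all genes shown as a box only); the axis leaves out Gadd45b at 1.41. The mitotic genes (median -0.17) and DNA replication genes (median -0.18) lie left of all genes (median -0.02).

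Of 7 marker lists of other cell types, the means of the keratinocyte and neutrophil lists did not overlap between the groups, and those of the other 5 lists did. Of 17 measured keratinocyte markers, 11 were called higher and 0 lower, and their mean ran from 5.33 to 5.86 in PBS and from 6.64 to 7.30 in CpG1826 tumors. Within the CpG1826 group this mean was highest in mouse 189 (7.30), which had the lowest mitotic mean (9.07), and lowest in mouse 183 (6.64), which had the next lowest mitotic mean (9.19). Within the PBS group it was 5.57 in mouse 26, with the lowest mitotic mean (9.29), and 5.33 in mouse 592, with the highest (9.46). In PBS mice 29, 482 and 661 it was higher than in both, at 5.67, 5.65 and 5.86, with mitotic means of 9.39, 9.36 and 9.39. Of 9 neutrophil markers 6 were higher (mean 5.16 to 5.38 in PBS, 5.85 to 6.38 after CpG1826), and of 12 macrophage and monocyte markers 1 was higher and 3 lower (9.52 to 9.83 and 9.27 to 9.69). Of 10 T and NK cell markers 1 was higher (6.72 to 7.52 and 6.69 to 7.58), and of 7 endothelial markers 1 was lower (7.32 to 7.49 and 7.22 to 7.55). None of 8 fibroblast markers (10.46 to 10.55 and 10.12 to 10.58) or 5 B and plasma cell markers (4.82 to 4.92 and 4.60 to 4.93) passed in limma. Unadjusted p-values under 0.05 were found for 2 fibroblast markers, both lower, and 0 B cell markers. That is 25% of the fibroblast markers, against 7.43% of all genes and 9.99% of those above the median level. Over all genes, 3.56% were called higher and 1.10% lower. The part of the cell type markers in the lower mitotic values was not tested.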

How the data were processed

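The authors deposited 1 log2 value per probe and array for 35512 probes, from 2.03 to 14.70, whose base was inferred from their range. R 2.7.1 and limma are named, with no role, per the submitters' processing notes; for background correction, probe summaries and scaling the method is not given in the sources used. If arrays were scaled to each other, a change common to most genes would not be seen.

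Only the 21789 probes with exactly 1 symbol in the platform annotation were used (1621 had several, 12102 none), and the brightest probe over all 10 arrays stood for a gene. All 19938 genes were fitted in R 4.3.3 with limma 3.58.1 (lmFit, then eBayes), two-sided, with Benjamini-Hochberg adjustment and a threshold of 0.05. The fit was tested on simulated data. The groups share no mouse number, and no batch or scan date was used.

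The members, lists, tests and alternatives were chosen with earlier results of these data known. Genes outside the members were named by rule: the 3 largest called, or else the 2 brightest, of each list, 6 regulators whatever their values, and the 8 most and 4 least like the members' mean. Sesn2, Btg1, Pttg1 and the epithelial markers were named with their values known. The alternatives were quantile normalization, median centring, 2 filters on dim genes, a trended and robust prior, array weights, probe means, a threshold of 0.10 and leaving out each mouse. Promoter windows are RefSeq's, on GRCm38.p6.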

Additional observations from a re-analysis of the deposited data

Results flagged for a closer look

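In 3 of 64 gene and group pairs of the mitotic genes, 1 tumor lay far from the other 4 of its group, with a gap to the nearest of more than 0.71 of the group's range. Chance alone flags about 1 in 20 such groups. All 3 were low values of PBS mouse 26: Kif20a at 8.77 against 9.20 for the next tumor, Ccna2 at 10.26 against 10.55, and Ccnb2 at 9.59 against 9.90. The cause was not tested.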

How the results depend on the processing

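No gene of the 32 was called higher under any alternative. The number called lower was 2 in the reported fit, 5 after a further quantile normalization, 0 after median centring, 4 when genes under the median level were dropped, 3 with those below the lower quartile left out, with a trended and robust prior, with array weights or at an adjusted p under 0.10, and 0 to 4 when 1 mouse was left out. With CpG1826 mouse 189 and PBS mouse 26 left out together, an alternative chosen after seeing the data, it was 1, Ccna2. Over all genes, 220 were called lower in the reported fit, 364 after quantile normalization, 338 without genes under the median level and 121 to 209 with 1 mouse left out. Over all alternatives, the genes called lower were 0 to 3 for the other kinetochore and the other spindle genes, 0 or 1 for the G2/M regulators, 0 to 2 for the anaphase-promoting complex and for condensin and cohesin, 3 to 13 for DNA replication and 0 to 3 for G1 genes. The median difference of the 32 genes stayed between -0.19 and -0.13. No paired analysis was possible because no mouse number occurs in both groups.

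Of 576 values of the 32 genes under an alternative, 21 changed sign, in Bub1, Nusap1, Birc5 and Cdca8. A further quantile normalization gave -0.0145 for Bub1 and -0.0166 for Wee1, array weights -0.0388 for Bub1 and -0.0276 for Zwint, and median centring 0.0063 for Nusap1, 0.0133 for Cdca8, 0.0088 for Hmgb2 and 0.0142 for Rad21. Without both mice, Bub1 was at -0.0254, Zwint at -0.0533 and Ube2s at -0.0001. Leaving out 1 mouse at a time gave -0.0653 to 0.0525 for Bub1, -0.0758 to 0.0533 for Nusap1, -0.1305 to 0.0129 for Birc5, -0.0576 to 0.0485 for Cdca8, -0.1123 to 0.0317 for Mybl2, -0.0231 to 0.0536 for Wee1, -0.0307 to 0.0939 for Zwint, -0.0108 to 0.1132 for Ube2s, -0.0566 to 0.0368 for Hmgb2 and -0.031 to 0.0224 for Rad21. The causes were not tested.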
